A study of Mus musculus with 6 samples.

Results

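The genes described here are 41 genes of epithelial cell contacts, taken by symbol: 12 claudins, 7 other tight junction genes, 4 apical polarity genes, 8 desmosome and plakophilin genes, 4 keratins, and 6 genes of the epithelial surface, its proteases and its sorting machinery. They are 41 of 55471 gene identifiers counted, and 36 of them passed the filter on low counts and were tested among 15091 genes. The RNA came from mouse epiblast stem cells kept for 2 d as embryoid bodies, which are free-floating aggregates in which the cells differentiate, in serum. Epiblast stem cells correspond to the epithelial epiblast shortly before and during gastrulation. There were 2 groups of 3 libraries, labelled Mixl1 KO (a knockout of the primitive streak homeobox gene Mixl1) and Mixl1 induced (a line with inducible Mixl1 that received doxycycline at 1 µg/mL over the final 24 h). Before aggregation for 24 h, the cells of both groups were kept on irradiated embryonic fibroblasts in medium with the growth factors Activin A (20 ng/mL) and bFGF (10 ng/mL). The labels give neither the parental line, the number of clones, the altered part of Mixl1, nor whether the knockout cells received doxycycline. Line, drug and Mixl1 therefore cannot be told apart, and neither can the state of the cells and the share of each cell type in these bulk samples. Nothing says that the replicates were grown apart, so each p-value rests on a spread between samples that may be technical.

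Tight junctions seal the space between epithelial cells near their apical side. Claudins and the MARVEL proteins (occludin, tricellulin) form the strands, ZO proteins and cingulin tie the strands to actin, and the CRB and PAR complexes set where the apical side lies. Desmosomes are spot-like contacts in which desmogleins and desmocollins bridge the cells, while plakoglobin, plakophilins and desmoplakin couple them to keratin filaments. In the mouse embryo the epiblast is an epithelium, and cells that pass through the primitive streak loosen these contacts as they become mesoderm or re-form them as endoderm.

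The direction of the calls varied by junction type. All 4 keratin genes rose in the induced libraries. In them Krt8 and Krt18 averaged 441.8 and 358.1 CPM (scaled reads per 1e6 reads of tested genes), against 220.7 and 155.3 in the knockout. Desmosome genes went the other way for the most part: 5 of 8 fell, among them both desmosomal cadherins, and 1 rose. Of 8 tested claudins 6 rose and Cldn6 fell. Of the 36 tested genes 17 rose and 11 fell at an adjusted p of 0.05 (edgeR quasi-likelihood test, Benjamini-Hochberg adjustment over all tested genes), where 31% of all tested genes rose and 31.6% fell. Together 28 of 36, or 77.8%, passed, against 62.6% of all tested genes. At least a 2-fold change was called for 11 of 36 (30.6%), against 16.1% of all tested genes: 7 rose (6.47% of all) and 4 fell (9.67% of all). The knockout and induced ranges stood apart for 27 of 36, against 67.1% of all tested genes. The median log2 fold change of the tested genes was 0.10, against 0.00 for all tested genes, and its typical size (the median without sign) was 0.44 against 0.32. Fold changes are induced over knockout throughout.

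**Figure D1:**
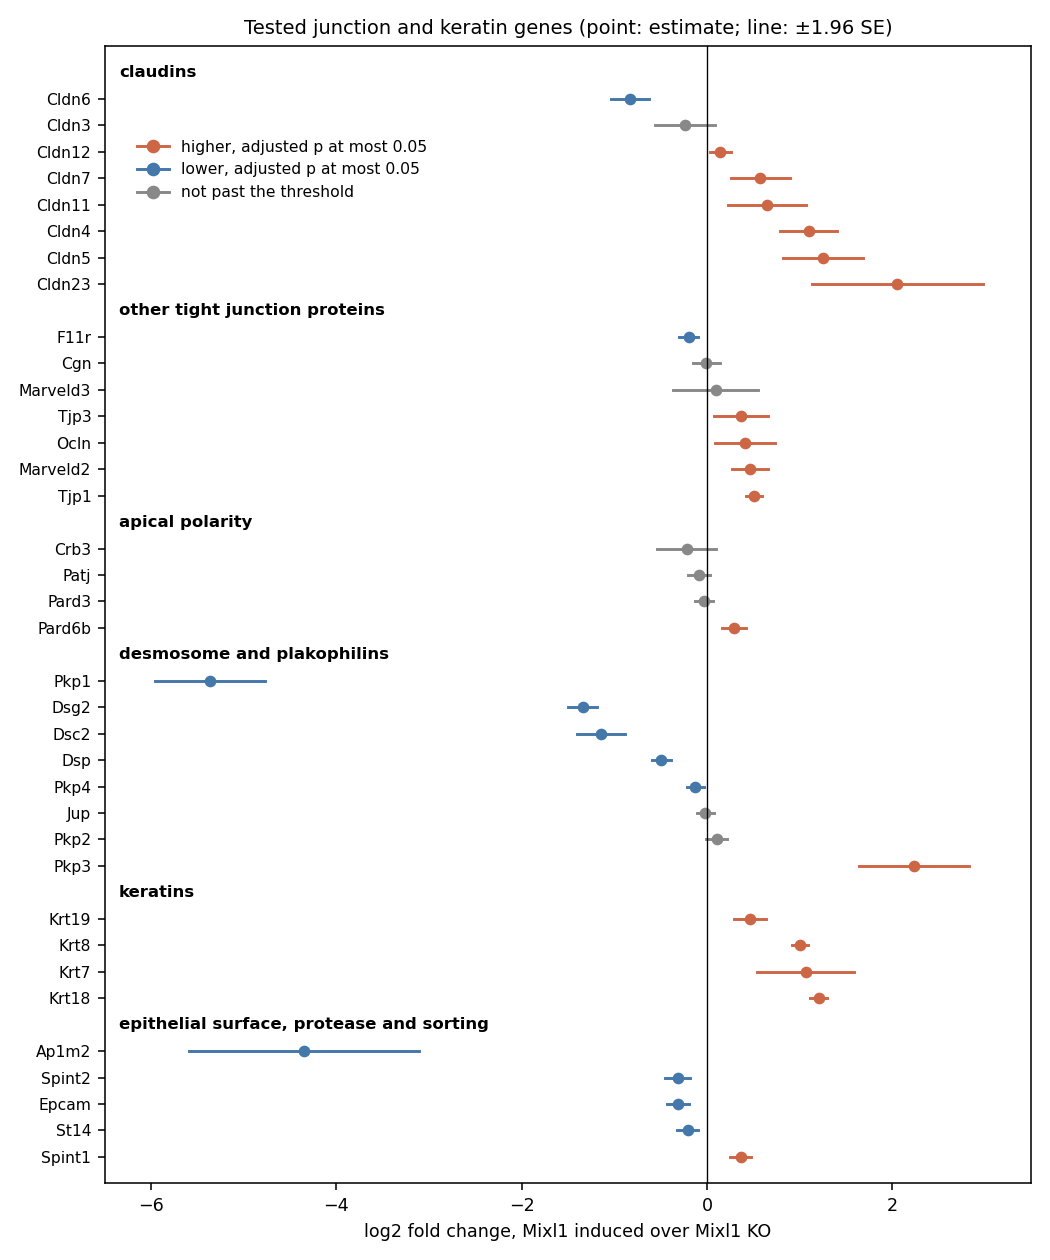
The log2 fold change (x axis, induced over knockout) of each of the 36 tested genes, grouped by junction type; points are edgeR estimates, lines are 95% intervals, and colour gives the call at an adjusted p of 0.05. All 4 keratins lie right of 0, and 5 of 8 desmosome genes are called lower (31.6% of all tested genes are). Pkp1 at -5.37 and Pkp3 at 2.24 lie at the ends of the scale.

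The libraries held 17490426 to 21026423 gene reads. Mixl1 itself had 39.9, 36.8 and 42.7 CPM in the knockout libraries and 427.2, 441.1 and 429.2 CPM in the induced ones (log2 fold change 3.44), and the part of the gene that the knockout reads came from is not known. All 8 markers of epiblast stem cells were tested, and 5 rose and 3 fell, Sox2 by 1.86 upward, Nanog by -1.59 and Lin28a by 0.87 on the log2 scale. Their summed level was 2015 to 2149 CPM in the knockout and 1819 to 1898 CPM in the induced libraries. Pou5f1 was the largest part of that sum, at means of 1293.8 and 807.1 CPM, and fell (log2 fold change -0.68). Markers of other cell types moved with the groups, where 31% of all tested genes rose and 31.6% fell. Macrophage markers (6 of 6 tested fell; Tyrobp -3.01, Adgre1 -2.65, Ptprc -2.33) summed to 303.4 to 436.9 CPM in the knockout and 44.2 to 54.9 CPM in the induced libraries, with Lyz2 at means of 311.2 and 34.7 CPM and Aif1 at 22 and 21 reads in all. Surface ectoderm markers (3 of 4 tested fell, 1 rose; Wnt6 -3.66, Grhl3 -1.75, Tfap2a 2.36) summed to 144.4 to 165.7 and 23.6 to 27.1 CPM, of which Wnt6 held means of 121.2 and 9.62 CPM, and Krt14, which defines basal epidermis, had 0 and 8 reads. Definitive endoderm markers (6 of 8 rose; Cer1 7.49, Gata6 5.26, Gata4 4.66) summed to 17.6 to 20.9 and 126.7 to 135.9 CPM, though Sox17 was at 0.505 and 0.81 CPM. Endothelial markers (4 of 5 tested rose; Kdr 3.78, Tek 3.27, Pecam1 1.18; Cdh5 fell, -0.95) summed to 7.22 to 7.95 and 45.2 to 50.5 CPM, with Emcn at 1 and 0 reads. Cdh5 is named after its value was seen, as are Cdx2, Lyz2 and Pou5f1 here. Trophoblast markers (4 of 6 rose, 2 fell; Gata3 3.83, Tfap2a 2.36, Ascl2 -1.48) summed to 188.0 to 241.5 and 76.3 to 83.5 CPM, with no read of Prl3d1. Of that sum Cdx2, which fell, held a mean of 180.3 CPM in the knockout and 13.2 CPM in the induced group. The trophoblast list holds Krt7, itself among the 41 genes, as part of the 4 that rose. Tfap2a stands in both the trophoblast and the surface ectoderm lists. Of the visceral endoderm markers only Cubn (fell, -1.45) and Amn (-0.12, not past the threshold) were tested, Ttr and Hnf4a had no read, and the sum was 2.47 to 4.13 and 1.94 to 2.27 CPM. Fibroblast markers (3 of 9 rose, 4 fell; Dcn -2.64, Pdgfrb -2.27, Thy1 0.93) summed to 842.8 to 995.9 and 649.1 to 832.3 CPM. The part of these cells in the results below was not tested.

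Levels per length set the genes in order within each family. They are RPKM (CPM per 1 kb of exon), with lengths from the GENCODE M21 exons of each gene. The keratin genes Krt18 and Krt8 stood highest of all 41, at 108.1 ± 2.26 and 112.7 ± 2.42 RPKM (SD, n = 3) in the knockout and 249.2 ± 12.8 and 225.6 ± 7.94 RPKM (SD, n = 3) in the induced group. They were followed in the knockout by F11r (63.0), Dsp (44.2), Epcam (43.7) and Jup (35.3). In the induced group the next were F11r (55.0), Tjp1 (37.8), Epcam (35.2) and Jup (34.8). At the low end were Cldn18 with no read and Cldn1, Cldn9, Cldn10, Cldn23, Marveld3, Krt7, Pkp3, Rab25 and Ap1m2, each under 1 RPKM in both groups.

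**Figure D2:**
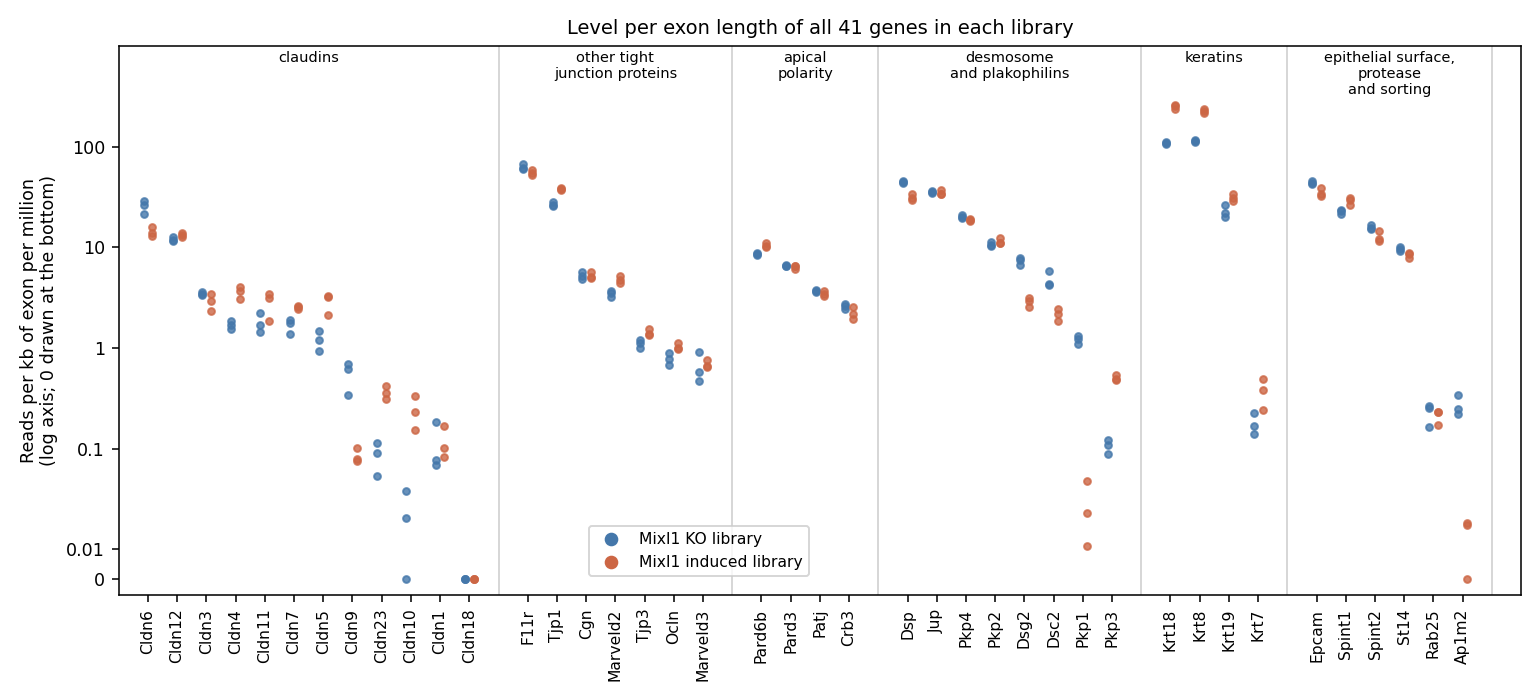
RPKM (y axis, log scale, 0 drawn at the bottom) of all 41 genes in each of 3 knockout and 3 induced libraries, ordered by mean level within each group. Krt18 and Krt8 lie above 100 in all libraries. In the induced libraries Pkp1 is at 0.048, 0.023 and 0.011 RPKM and Ap1m2 at 0, 0.018 and 0.017 RPKM. Cldn18, with no read, lies at the bottom in all libraries.

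Claudins are membrane proteins whose extracellular loops decide whether the seal is tight or lets ions pass. Of the 8 tested claudin genes 6 rose (31% of all tested genes did), Cldn6 fell and Cldn3 was not called. Per length, Cldn6 had the highest mean level of the 12 in both groups (25.4 and 14.2 RPKM), with Cldn12 next (11.98 and 13.2 RPKM); in induced replicate 3 Cldn12 was the higher of the pair (13.17 and 13.07 RPKM). Cldn6, a claudin typical of embryonic epithelia and undifferentiated cells (chromosome 17, 23679249 to 23682446, plus strand, mm10), had 36.6, 45.2 and 49.4 CPM in the knockout libraries and 27.2, 23.6 and 22.5 CPM in the induced ones. All induced libraries were below all knockout libraries, and the log2 fold change was -0.84 (SE 0.10, edgeR adjusted p = 9.24e-06). Cldn12, a claudin found in many tissues, was at 50.7 ± 2.28 CPM in the knockout and 56.0 ± 2.55 CPM in the induced group (SD, n = 3), and its rise had a log2 fold change of 0.14.

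Among the lesser claudins, Cldn4 (chromosome 5, 134945119 to 134946934, minus strand), a barrier-forming claudin, had 3.07, 3.36 and 2.79 CPM in the knockout and 7.38, 6.74 and 5.57 CPM in the induced libraries, a 2.14-fold rise (log2 fold change 1.10, SE 0.16, edgeR adjusted p = 2.98e-06). Cldn5 (chromosome 16, 18776847 to 18778262, plus strand), the main claudin of endothelium, had 1.32, 1.71 and 2.11 CPM in the knockout and 4.63, 4.57 and 3.00 CPM in the induced libraries, a 2.39-fold rise (log2 fold change 1.26, SE 0.22). Of the endothelial markers given above 4 of 5 tested rose and Cdh5 fell. Cldn23 rose from 9 reads over the knockout libraries (2, 3 and 4) to 38 over the induced ones (16, 10 and 12), a log2 fold change of 2.06 (SE 0.47). For these 3 claudins the libraries of the groups did not overlap, as for 67.1% of all tested genes.

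Cldn7, which lies along the lateral membrane and binds EpCAM, rose from 3.28 ± 0.508 to 4.91 ± 0.188 CPM (SD, n = 3). Cldn11, known from myelin and Sertoli cells, rose from 3.34 ± 0.739 to 5.26 ± 1.60 CPM (SD, n = 3), but its groups overlapped. Cldn3, a barrier-forming claudin, did not pass, with a log2 fold change of -0.24 and a 95% interval from -0.57 to 0.08. Cldn3 and Cldn4 lie 39279 bp apart on chromosome 5 with opposite strands, and only Cldn4 passed; the difference between them was not tested. The calls of Cldn11 and Cldn12 were lost when any of several libraries was left out, and that of Cldn12 also in other settings. Values are edgeR adjusted p except where DESeq2 is named. Cldn11 did not pass without knockout replicate 2 (0.0562), induced replicate 1 (0.0678) or induced replicate 2 (0.0801). Cldn12 did not pass without knockout replicate 2 (0.119) or 3 (0.0892) or induced replicate 1 (0.168) or 3 (0.06), with no filter (0.0619) or in DESeq2 (0.0761).

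The 4 untested claudins had few reads. Cldn9 lies 137 bp from Cldn6 on the opposite strand and is one of its closest relatives, so reads that fit both were dropped; it had 10, 16 and 19 reads in the knockout and 3, 2 and 2 in the induced libraries. Cldn10, a claudin of ion-permeable junctions, had 2, 0 and 1 reads in the knockout and 18, 7 and 11 in the induced libraries, an induced-to-knockout ratio of 12.2 (95% exact interval 3.86 to 62.1, counting error only). The stomach and lung claudin Cldn18 had none, which allows up to 0.0262 CPM over all libraries. Cldn1, the claudin of the epidermal barrier, had 31 and 33 reads. The groups did not overlap for Cldn9 and Cldn10, and they overlapped for Cldn1. In the fit without the filter Cldn9 (log2 fold change -2.60, edgeR adjusted p = 1.16e-05) and Cldn10 (3.45, adjusted p = 3.73e-06) passed.

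Summed per length over the 12 genes, the claudin level was 44.8, 48.0 and 51.2 RPKM in the knockout and 47.1, 42.9 and 38.8 RPKM in the induced libraries, and these ranges overlapped. Within that sum Cldn6 made up 52.8% ± 4.61 of it (SD, n = 3) in the knockout and 33.1% ± 0.965 in the induced group. Cldn4 made up 3.55% ± 0.474 and 8.39% ± 0.419, and Cldn5 2.08% to 2.90% and 5.47% to 7.52%. For each of these 3 genes the shares of the groups did not overlap. Without Cldn6 the sum was 21.7 to 23.5 RPKM in the knockout and 25.7 to 31.3 RPKM in the induced libraries.

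**Figure D3:**
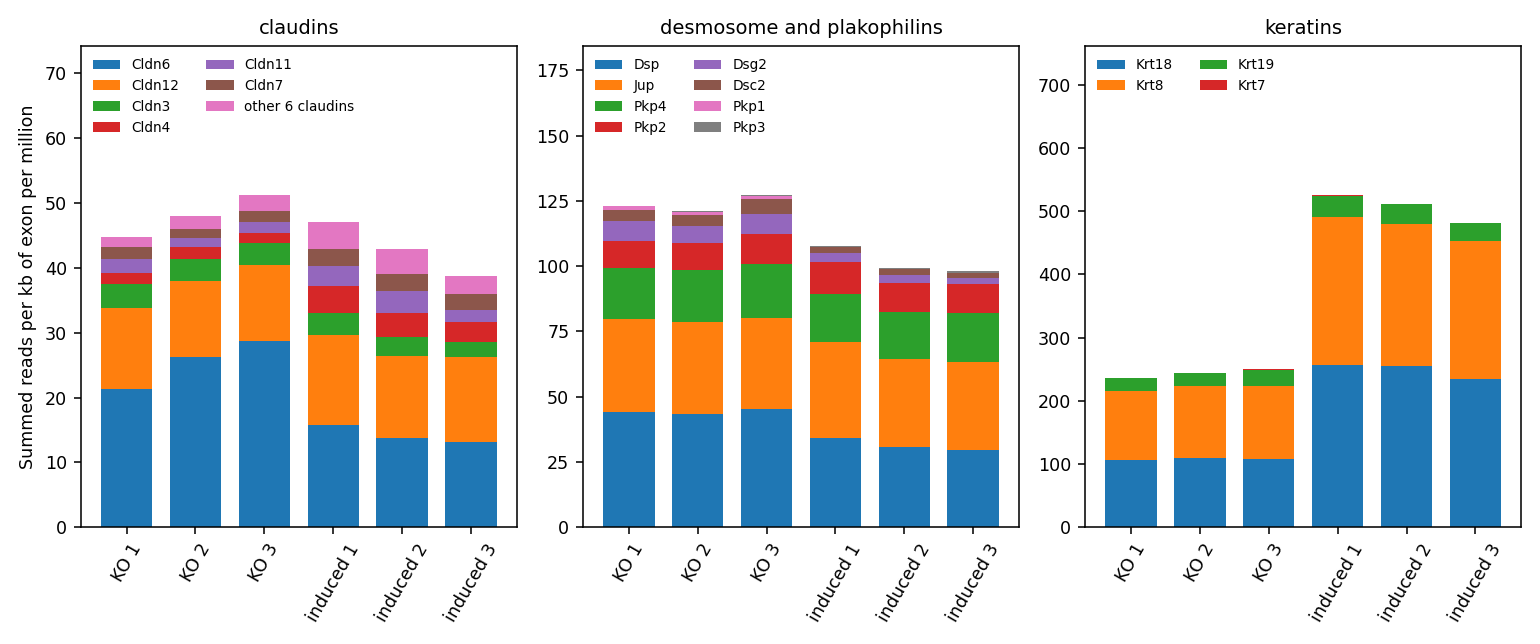
Stacked levels per length (RPKM) of the claudins, of the desmosome and plakophilin genes, and of the keratins in each library. The Cldn6 layer shrinks in the 3 induced libraries while the claudin total overlaps between groups, the desmosome total is lower in all 3 of them, and the keratin total is at least 481.6 against at most 249.7.

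The promoters of Cldn4, a claudin gene that rose, and Cldn6, which alone fell among the 8 tested claudins of the list, are shown. Each CAGGTG or its reverse complement CACCTG is in capitals. This is the E-box bound by the ZEB and SNAI repressors of epithelial genes, and whether any factor binds here was not measured. The sequences are from RefSeq on GRCm38.p6 (the mm10 assembly) and run 5′ to 3′ from 250 bases before to 50 after the start of transcription: Cldn4 at chr5:134946885-134947184 on the minus strand and Cldn6 at chr17:23679115-23679414 on the plus strand.
Cldn4: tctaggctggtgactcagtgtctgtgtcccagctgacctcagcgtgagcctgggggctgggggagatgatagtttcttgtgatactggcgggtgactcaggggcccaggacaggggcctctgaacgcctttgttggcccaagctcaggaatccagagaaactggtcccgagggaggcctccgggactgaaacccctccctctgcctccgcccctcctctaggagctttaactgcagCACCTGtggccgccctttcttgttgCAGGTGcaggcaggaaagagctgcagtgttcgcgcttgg
Cldn6: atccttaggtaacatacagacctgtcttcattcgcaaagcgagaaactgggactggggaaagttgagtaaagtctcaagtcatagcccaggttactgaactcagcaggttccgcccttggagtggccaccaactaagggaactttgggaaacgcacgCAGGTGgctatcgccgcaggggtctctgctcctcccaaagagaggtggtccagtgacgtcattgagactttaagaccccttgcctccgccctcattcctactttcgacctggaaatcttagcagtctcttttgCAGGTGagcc
Both hold 2 matches. In Cldn4 they begin at positions -14 and 12 from the start, and in Cldn6 at -93 and 41.

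Of the 7 other tight junction genes 4 rose, in the occludin family and the ZO scaffolds, and 1 fell. Among all tested genes 31% rose and 31.6% fell. Tjp1, which encodes the scaffold ZO-1, had 206.8, 198.9 and 217.8 CPM in the knockout and 302.1, 294.3 and 289.7 CPM in the induced libraries, a 1.42-fold rise (log2 fold change 0.51, SE 0.046, edgeR adjusted p = 2.56e-09). No induced library was below any knockout library. Marveld2, which encodes tricellulin, the protein of three-cell contacts, rose from 11.7 ± 0.838 to 16.1 ± 1.30 CPM (SD, n = 3). Its neighbour on chromosome 13, Ocln (occludin), 43238 bp away on the same strand, rose from 3.29 ± 0.481 to 4.37 ± 0.312 CPM (SD, n = 3). Tjp3 (ZO-3) rose from 4.10 to 5.29 CPM; its exons overlap those of Apba3 on the other strand, and the strand-specific counts used here separate the 2 genes.

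F11r, which encodes the adhesion molecule JAM-A and had the highest level per length of this group, had 160.3, 163.9 and 179.2 CPM in the knockout and 156.0, 144.3 and 138.7 CPM in the induced libraries. This small fall had a log2 fold change of -0.20 (SE 0.053, edgeR adjusted p = 0.00271), and the groups did not overlap. Cgn (cingulin), at -0.01 on the log2 scale (95% interval -0.15 to 0.14), and Marveld3, a further MARVEL protein, at 0.09 (95% interval -0.36 to 0.55), were not called. The calls for Ocln and Tjp3 were lost when any of several libraries was left out, and in other settings with all libraries. Values are edgeR adjusted p except where DESeq2 is named. Ocln did not pass without knockout replicate 1 (0.168) or 2 (0.0696) or induced replicate 1 (0.126) or 2 (0.0535), with no filter (0.0531) or in DESeq2 (0.0992). Tjp3 did not pass without knockout replicate 1 (0.0706) or 2 (0.133) or induced replicate 1 (0.0625) or 3 (0.136), with no filter (0.0684) or in DESeq2 (0.104).

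Of the 4 apical polarity genes 1 was called, against 62.6% of all tested genes. Pard6b, which encodes the PAR6 adaptor of atypical protein kinase C and had the highest level per length of the 4, had 29.9, 28.2 and 29.4 CPM in the knockout and 34.4, 34.8 and 37.7 CPM in the induced libraries (log2 fold change 0.29, SE 0.067, edgeR adjusted p = 0.000717). Pard3, the PAR scaffold, was at 94.7 ± 1.40 and 92.8 ± 3.49 CPM (SD, n = 3), with an interval of the log2 fold change from -0.13 to 0.07. Patj, a scaffold of the Crumbs complex, had an interval from -0.21 to 0.03. Crb3, its transmembrane partner in epithelia, had -0.54 to 0.10. These intervals leave out a 2-fold change in either direction. For Pard3, Patj and Crb3 the groups overlapped.

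Desmosome genes held the largest fall and the largest rise of the 36 tested genes. Dsg2 and Dsc2, which encode the desmoglein and desmocollin of simple epithelia, lie 498519 bp apart on chromosome 18 (Dsg2 from 20558074 to 20604521, plus strand; Dsc2 from 20030633 to 20059554, minus strand). Dsg2 had 61.4, 54.4 and 64.9 CPM in the knockout and 26.0, 24.3 and 20.9 CPM in the induced libraries, a 2.53-fold fall (log2 fold change -1.34, SE 0.080, edgeR adjusted p = 1.92e-11). Dsc2 had 22.9, 22.2 and 30.8 CPM in the knockout and 12.9, 11.5 and 9.72 CPM in the induced libraries, a 2.21-fold fall (log2 fold change -1.15, SE 0.13, edgeR adjusted p = 4.67e-06). For each gene every induced library was below every knockout library. Their summed level per length went from 12.1 ± 1.47 to 5.03 ± 0.619 RPKM (SD, n = 3).

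In the inner plaque Dsp fell and Jup was not called. Dsp (desmoplakin, chromosome 13, 38151294 to 38198577, plus strand), which anchors keratin filaments and had the highest level per length of the group in the knockout (Jup in the induced libraries), had 424.9, 418.8 and 436.9 CPM in the knockout and 328.7, 297.3 and 284.6 CPM in the induced libraries, a 1.41-fold fall (log2 fold change -0.49, SE 0.050, edgeR adjusted p = 1.87e-08). Jup (plakoglobin), which desmosomes share with adherens junctions, was at 227.1 ± 3.37 and 223.9 ± 12.5 CPM (SD, n = 3) and did not pass, with an interval of the log2 fold change from -0.11 to 0.07. As a share of the group's summed level per length, Jup was 28.5% ± 0.991 and Dsg2 5.88% ± 0.389 (SD, n = 3) in the knockout, against 34.2% ± 0.263 and 2.82% ± 0.208 in the induced group.

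The plakophilins bind desmoplakin and the cadherin tails, and Pkp1 is best known from epidermis and other stratified epithelia. Pkp1 (chromosome 1, 135871395 to 135919207, minus strand) had 6.63, 5.46 and 6.16 CPM in the knockout (136, 99 and 117 reads) and 0.241, 0.114 and 0.0546 CPM in the induced libraries (5, 2 and 1 reads). This 41.3-fold fall had a log2 fold change of -5.37 (SE 0.30, edgeR adjusted p = 9.60e-13), which became -6.07 without induced replicate 1. Pkp3, found in desmosomes of simple and stratified epithelia, went the other way from 0.39, 0.441 and 0.316 CPM (8, 8 and 6 reads) to 1.78, 1.94 and 1.75 CPM (37, 34 and 32 reads), a 4.71-fold rise (log2 fold change 2.24, SE 0.30, edgeR adjusted p = 1.37e-06).

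Both are minor plakophilins here. Per length Pkp1 made up 3.77% ± 0.397 of the plakophilin level (SD, n = 3) in the knockout and 0.0885% ± 0.0599 in the induced group, and Pkp3 0.33% ± 0.0628 and 1.66% ± 0.127. Pkp4, which also sits at adherens junctions, and Pkp2, the broadly expressed plakophilin, made up the rest. Pkp2 was at 57.3 ± 2.498 and 61.7 ± 3.55 CPM (SD, n = 3) and was not called (0.11 on the log2 scale, edgeR adjusted p = 0.112; 0.0494 without knockout replicate 3). Pkp4 fell slightly, from 115.1 ± 3.66 to 105.5 ± 2.10 CPM (SD, n = 3), or by 0.13 on the log2 scale. That call was lost without knockout replicate 3 (edgeR adjusted p = 0.0952) or induced replicate 1 (0.0677) or 2 (0.106). The plakophilin sum was 31.4 to 33.4 RPKM in the knockout and 29.8 to 31.3 RPKM in the induced libraries. Beside Pkp1, 6 of 6 tested macrophage markers fell, and of 4 tested surface ectoderm markers 3 fell and Tfap2a rose, with the sums given above. Krt5, the keratin of basal surface ectoderm and among the 3 that fell, went from 79, 82 and 69 reads to 11, 9 and 4 (log2 fold change -3.22). Krt14 of the same list had 0 reads in the knockout and 8 in the induced libraries. Trp63 and Krt15 of that list were not tested, with 38 and 29 reads and with 32 and 13 reads. Lists that rose for the most part were definitive endoderm (6 of 8 tested) and endothelium (4 of 5 tested), and of 6 tested trophoblast markers 4 rose and 2 fell.

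**Figure D4:**
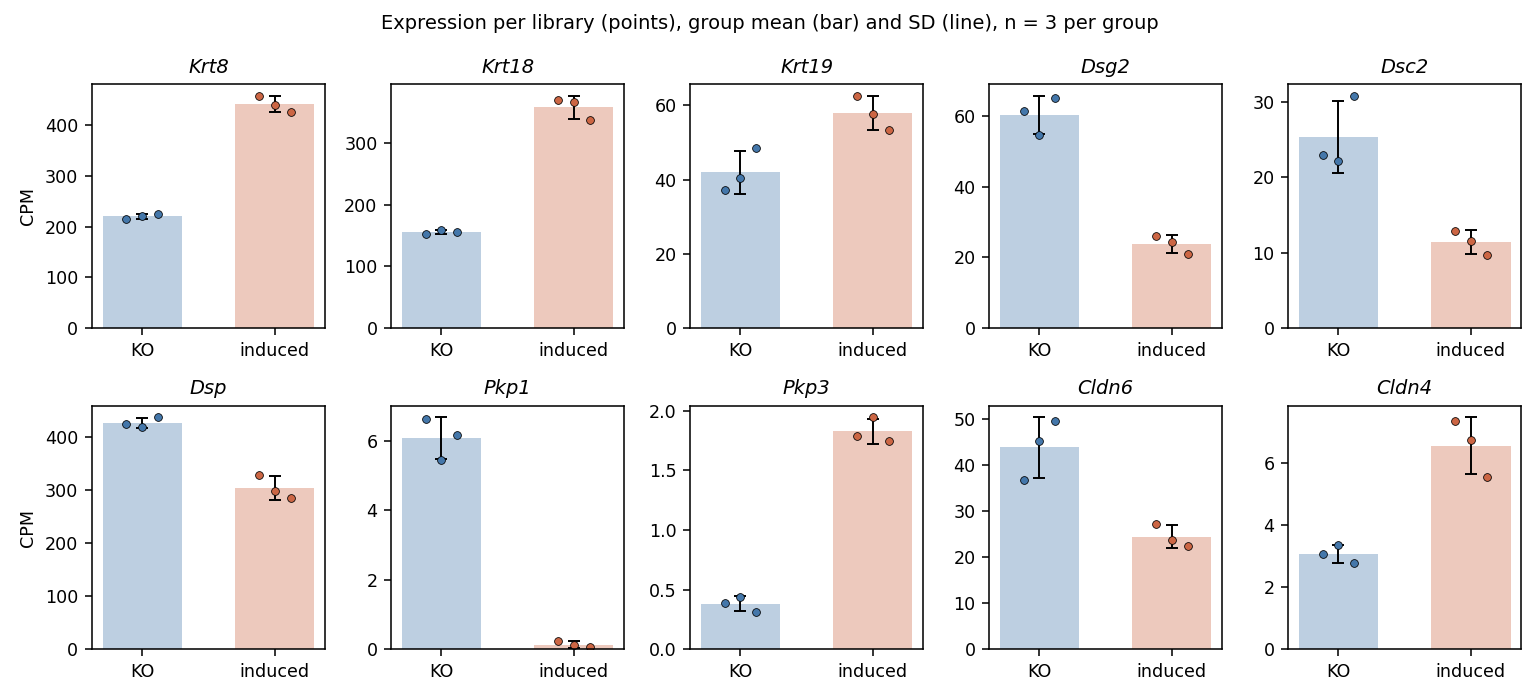
CPM (y axis, each from 0) of 10 genes in the knockout and induced libraries; points are libraries, bars are means and lines are SD over 3 libraries. In every panel the 2 groups do not overlap, as for 67.1% of all tested genes. The shift is upward for Krt8, Krt18, Krt19, Pkp3 and Cldn4 and downward for Dsg2, Dsc2, Dsp, Pkp1 and Cldn6.

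Keratin filaments are built from pairs of a type II and a type I keratin, and Krt8 with Krt18 is the pair of simple epithelia and the first to appear in the embryo. Krt8 (chromosome 15, 101996698 to 102004482, minus strand) had 216.0, 220.5 and 225.5 CPM in the knockout and 458.0, 440.2 and 427.0 CPM in the induced libraries, a 2.00-fold rise (log2 fold change 1.00, SE 0.045, edgeR adjusted p = 1.36e-14). Krt18 (chromosome 15, 102028180 to 102032027, plus strand) had 152.0, 158.4 and 155.4 CPM in the knockout and 369.7, 367.5 and 336.9 CPM in the induced libraries, a 2.31-fold rise (log2 fold change 1.21, SE 0.047, edgeR adjusted p = 1.29e-15). In both the spread within a group was small beside the gap between groups. The ratio of Krt18 to Krt8 per length was 0.959 ± 0.0198 in the knockout and 1.10 ± 0.0315 in the induced group (SD, n = 3), and these groups did not overlap. Reads that also fit processed copies of these genes were not counted, so levels may be too low in both groups.

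The other keratin genes rose as well. Krt19, a type I keratin of simple epithelia, had 37.1, 40.3 and 48.4 CPM in the knockout and 62.5, 57.7 and 53.4 CPM in the induced libraries, a log2 fold change of 0.47 (SE 0.087, edgeR adjusted p = 0.000265). Krt7, a type II keratin of ducts and trophoblast, was scarce, with 1.17, 0.992 and 1.58 CPM in the knockout and 2.70, 3.49 and 1.69 CPM in the induced libraries (log2 fold change 1.07, SE 0.27, edgeR adjusted p = 0.00161). For both genes the lowest induced library was above the highest knockout library. Type I over type II keratins, per length, came to 1.16 ± 0.0171 and 1.24 ± 0.0338 (SD, n = 3). Of the definitive endoderm markers 6 of 8 tested rose beside the keratins, and of the endothelial markers 4 of 5, with the sums given above. Of the trophoblast markers, which include Krt7 itself, 4 of 6 tested rose and 2 fell. Their mean sum went from 206.4 CPM in the knockout to 79.6 CPM in the induced group. Macrophage markers (6 of 6 tested) and surface ectoderm markers (3 of 4 tested) fell. The part of these cells in the keratin levels was not tested. Krt5 fell, Krt10 did not pass (log2 fold change 0.20), and 12 of 14 other keratin genes looked at had too few reads to be tested.

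Krt8 and Krt18 lie 23697 bp apart with opposite strands, and their promoters are shown as the ones of neighbours that rose together. They are RefSeq sequences of the same kind and assembly as above, Krt8 at chr15:102004293-102004592 on the minus strand and Krt18 at chr15:102027966-102028265 on the plus strand, with the E-box in capitals.
Krt8: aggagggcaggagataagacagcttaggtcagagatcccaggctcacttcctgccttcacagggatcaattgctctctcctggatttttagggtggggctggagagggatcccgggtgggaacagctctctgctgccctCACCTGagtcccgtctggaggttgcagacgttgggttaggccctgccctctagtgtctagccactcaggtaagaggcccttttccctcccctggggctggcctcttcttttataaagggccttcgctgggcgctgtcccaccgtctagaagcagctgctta
Krt18: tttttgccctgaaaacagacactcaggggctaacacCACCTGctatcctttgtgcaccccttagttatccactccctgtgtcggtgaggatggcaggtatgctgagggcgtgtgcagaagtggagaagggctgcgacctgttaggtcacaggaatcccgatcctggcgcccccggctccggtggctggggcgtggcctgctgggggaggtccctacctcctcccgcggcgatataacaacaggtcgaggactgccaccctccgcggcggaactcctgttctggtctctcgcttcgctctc
Each holds 1 match, beginning at position -111 in Krt8 and -214 in Krt18.

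Promoters of 31 of the 41 genes were in the RefSeq table, with 44 starts in all. On either strand CAGGTG was found in 25 of 44 (56.8%), against 20.2% of all 32851 promoters of this length; these promoters were also richer in G and C, at a median of 60.8% against 52.7%. Genes with it included some that rose (Krt8, Krt18, Cldn4, Cldn7, Ocln), some that fell (Cldn6, Dsp, Epcam, F11r, Ap1m2) and some that did not pass (Cldn3, Crb3, Patj). GGGCGG, the SP and KLF box, was in 65.9% against 35.7%, GCCNNNGGC, the TFAP2 box, in 38.6% against 16.6%, and TGANTCA, the AP-1 site, in 9.09% against 7.81%. The GRHL site AACCGGTT and the palindromic site of paired-class homeodomains such as MIXL1 were in none of the 44, and in 0.146% and 0.487% of all. Of 47 CAGGTG matches 1 overlapped another of these motifs, a TFAP2 box in Cldn3. A match is only a match of letters.

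The last group holds surface and trafficking genes of epithelia, and 4 of 5 tested members fell, against 31.6% of all tested genes. Epcam, the epithelial adhesion molecule that protects claudins from breakdown, had 100.9, 92.4 and 94.4 CPM in the knockout and 85.2, 74.97 and 71.4 CPM in the induced libraries (log2 fold change -0.31, SE 0.061, edgeR adjusted p = 0.000139). The membrane serine protease matriptase, encoded by St14, and its inhibitors HAI-1 and HAI-2, encoded by Spint1 and Spint2, act on epithelial junctions. St14 fell from 73.4 ± 3.19 to 63.5 ± 3.90 CPM (SD, n = 3) and Spint2 from 72.0 ± 3.06 to 57.8 ± 6.71 CPM (SD, n = 3), while Spint1 rose from 62.3 ± 2.39 to 80.1 ± 5.97 CPM (SD, n = 3). For Epcam, St14, Spint1 and Spint2 the groups did not overlap, as for 67.1% of all tested genes.

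Ap1m2, the epithelial subunit of the AP-1 clathrin adaptor that sorts proteins to the basolateral side, had 1.07, 0.771 and 0.684 CPM in the knockout (22, 14 and 13 reads) and 0, 0.0571 and 0.0546 CPM in the induced libraries (0, 1 and 1 reads). Its log2 fold change was -4.35 (SE 0.63, edgeR adjusted p = 3.54e-06), and -3.77 without induced replicate 1. As a ratio of reads this is 24.0 (95% exact interval 6.31 to 204, counting error only), so its size is loosely bounded. The small GTPase gene Rab25, of apical recycling, was not tested, with 22 and 20 reads. Its groups overlapped, and no difference was detectable at this depth.

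Where a gene lies was read beside its change, since the medians of some regions lay away from 0. The median log2 fold change was -0.33 over 596 tested genes of chromosome 15, -0.16 on chromosome 18 and -0.13 on chromosome 17. Tested genes within 2.5 Mb to either side, leaving out the 41, had medians under -0.2 for 10 of the 36 genes. The 3 keratins of chromosome 15 rose against surroundings at -0.42 (Krt8 and Krt18) and -0.36 (Krt7). Dsg2 and Dsc2, at -1.34 and -1.15, lay in surroundings at -0.27 and -0.34, and Pkp1, at -5.37, at -0.35. Cldn6, at -0.84, had surroundings at -0.26. Epcam, F11r and Crb3 had values close to those of their regions. Epcam had -0.31 with surroundings at -0.30, F11r -0.20 with -0.30, and Crb3, which did not pass, -0.22 with -0.33. Surroundings of the other 26 tested genes had medians from -0.15 to 0.15. What sets the regional values was not tested.

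**Figure D5:**
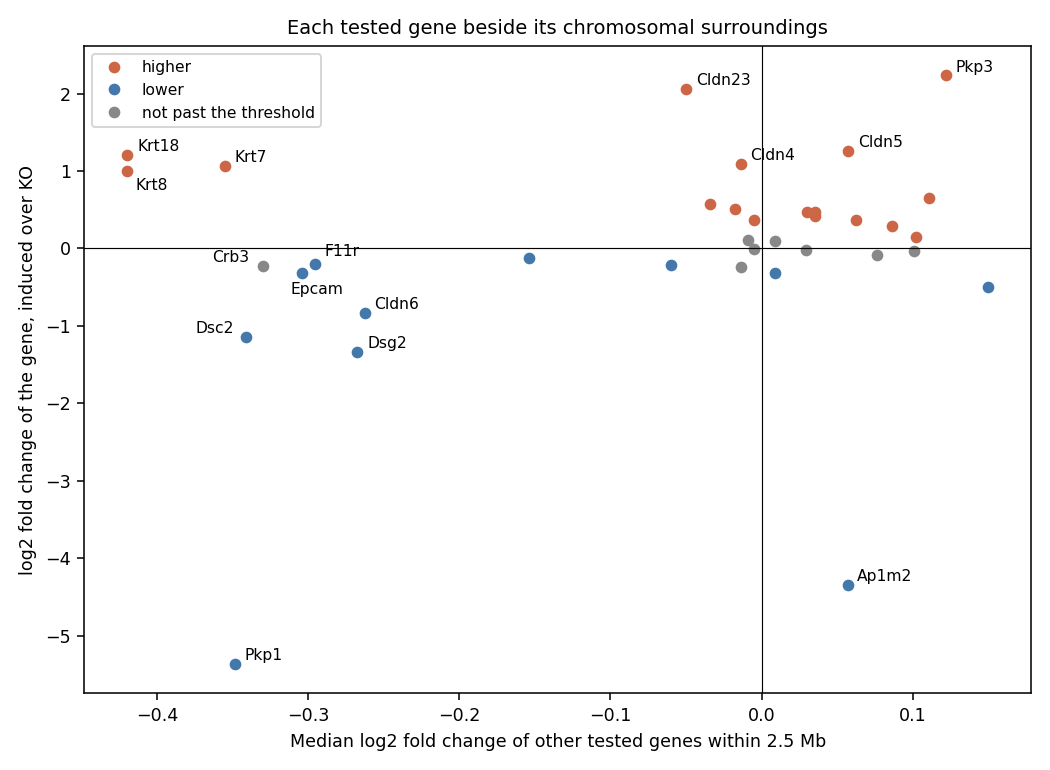
Log2 fold change of each of the 36 tested genes (y axis) against the median log2 fold change of other tested genes within 2.5 Mb (x axis), coloured by call. The keratins Krt7, Krt8 and Krt18 lie above 0 at the far left, and Epcam, F11r and Crb3 lie close to the values of their surroundings.

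Other genes of these junctions were read from whole lists. All 17 tested further claudin and tight junction genes passed, 13 upward and 4 downward (all tested genes, 62.6%). Cgnl1 (paracingulin) fell by 1.54 and the scaffold gene Magi1 by 0.93 on the log2 scale, while the junctional adhesion gene Jam2 rose by 1.63. Esam, which rose, is also in the endothelial list. Of 12 further polarity genes 4 rose and 5 fell (75% called), with Lin7c at 0.54, Llgl1 at 0.37 and Scrib at -0.33. Of 9 adherens junction genes 3 rose and 3 fell (66.7% called). The nectin genes Nectin3 and Nectin1 were at 0.72 and 0.75 and Cdh1 (E-cadherin) at -0.80. Of 3 tested genes among 8 of desmosomes and the cornified envelope, Ppl (periplakin) fell by 1.88, Perp fell by 0.41 and Evpl (envoplakin) rose by 1.62.

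Regulators of these genes were mixed. Of 12 tested epithelial transcription factor and splicing genes 3 rose and 5 fell (66.7% called, against 62.6% of all tested genes). Tfap2c was at -1.88, Grhl3 at -1.75 and Klf5 at 0.97, and the median of the list was -0.30. Grhl3, Tfap2a and Trp63 of this list are also among the surface ectoderm markers. Grhl2, the grainyhead factor known for activating claudin and desmosome genes, was at 6.84 ± 1.60 and 6.77 ± 0.672 CPM (SD, n = 3), with -0.02 on the log2 scale and no call, and was picked after its value was seen. Of 7 repressors of epithelial genes 3 rose and 3 fell (85.7% called), with Zeb2 at 0.59, Twist2 at -1.42 and Snai3 at -0.96.

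The authors' deposited table of their DESeq2 comparison held 40 of the 41 genes. Of the 28 genes called here it called 24 in the same direction at an adjusted p of 0.05, and the other 4 (Cldn12, Ocln, Tjp3, Pkp4) had values from 0.0819 to 0.146 in the authors' deposited table.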

How the data were processed

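A kit for stranded mRNA was used, per the labels' protocols. Per the submitters' processing notes, reads were processed with bcl2fastq, STAR and DESeq2 on mm10; the sources used here do not give versions or the annotation. The authors deposited raw read counts per gene and library. The column antisense to the first read was used, since it held 96.2% to 96.3% of stranded gene reads. Rows naming no gene (15.1% to 17.6% of reads) were left out. Multimapped reads were not counted. The authors also deposited a table with log2 fold changes and adjusted p-values.

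Gene names, positions and exon lengths came from GENCODE M21 (GRCm38), which matched 55230 of 55471 identifiers. The test was edgeR 4.0.16 in R 4.3.3 (filterByExpr, TMM scaling, robust quasi-likelihood fit, group as the only term, two-sided, all 6 libraries). A run on simulated counts held a far smaller share of changed genes than was called here, so it does not check these conditions. Standard errors are the log2 fold change over the square root of F. The median standard error was 0.083 for the tested genes described here. The 95% intervals of log2 fold changes come from these standard errors and include the spread between libraries; the exact 95% intervals of read ratios and the limit of 3 reads at a count of 0 cover counting error only. Within groups, libraries differed beyond counting noise (chi-square over degrees of freedom 2.26 to 5.24). The 13 alternatives were DESeq2 1.42.0 size factors, no filter, at least 1 CPM in 3 libraries, unstranded counts, a replicate block, DESeq2, limma-voom (limma 3.58.1), and each library left out.

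All 41 genes are named; per-library values are given for genes past the threshold with at least a 2-fold change and for the highest per length in each group, and up to 3 genes of smallest p for each other list. The members and lists were chosen with earlier results of these data known. The window of 2.5 Mb, the motifs and the family sums were chosen after seeing the data.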

Additional observations from a re-analysis of the deposited data

Results flagged for a closer look

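Reads on the strand opposite to Cldn10 stood out, in a column of the files that the comparison does not use. They made up 22% of its stranded reads, 11 against 39, and no other of the 41 genes with more than 3 such reads reached 20%. The knockout libraries held 2, 0 and 0 of them and the induced libraries 7, 0 and 2. At these counts the groups overlapped.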

How the results depend on the processing

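The number of genes that rose was 17 and stayed between 14 and 17 under the alternatives with all 6 libraries (14 in DESeq2, 15 with no filter), and the number that fell, 11, between 10 and 12. Leaving out 1 library gave 13 to 18 that rose and 10 to 12 that fell. The median log2 fold change of the tested genes then went from 0.04 (without knockout replicate 1) to 0.14. These counts and medians cover different sets. Of the 41 genes 36 were tested in the main fit, 40 with no filter, 34 under the stricter filter and 37 to 39 without 1 library. With no filter the counts take in Cldn10, which rose, and Cldn9, which fell. Over all alternatives and single genes, 434 values kept direction and side of the threshold, 24 kept the direction and lost the call, 1 gained a call and 7 changed sign. Those that changed sign had not passed. With unstranded counts Cgn had a log2 fold change of 0.0027. Leaving out 1 library gave log2 fold changes from -0.075 to 0.055 for Cgn, from -0.094 to 0.396 for Marveld3, from -0.049 to 0.0056 for Pard3 and from -0.067 to 0.0082 for Jup. Cldn23 and Ap1m2 had no value under the stricter filter. The titles number the replicates alike in both groups, but same-numbered libraries did not deviate together (correlations of -0.0026, 0.046 and 0.040). With the replicate block 17 genes rose and 11 fell, and 4789 and 4858 of all genes against 4684 and 4766 without it. Depth limits Cldn1, Cldn9, Cldn10, Cldn18, Cldn23, Pkp3, Rab25 and Ap1m2.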

Other observations

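Desmosomal cadherins outside the 41 genes, picked after their values were seen, had few reads, all of them in the knockout libraries. Dsc1, the desmocollin of differentiated epidermis, had 38 reads over the knockout libraries (0.668 ± 0.306 CPM, SD, n = 3) and none in the induced ones. Set against a limit of 3 reads over the induced group, the knockout level was 12.4-fold higher. This ratio leaves out the counting error of the 38 reads. Dsc3 had 7 reads in the knockout, Dsg3 had 5 and Dsg1a had 1, with none in the induced libraries, and Dsg4 had none in either group. None of these 5 passed the filter on low counts.

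Further claudin genes picked after their values were seen changed by more than most of the 12. Cldn19, a claudin of kidney and myelin, fell from 2.15 ± 0.493 to 0.163 ± 0.0661 CPM (SD, n = 3), or by 3.69 on the log2 scale. Cldn2, which forms cation pores, rose from 4 reads to 38 over 3 libraries each (log2 fold change 3.16). Among the regulators, also picked after their values were seen, Ovol2 fell from 4.77 ± 1.63 to 0.645 ± 0.22 CPM (SD, n = 3). It holds epithelial cells back from a mesenchymal state. Elf3 fell from 42.7 ± 7.57 to 7.91 ± 1.02 CPM (SD, n = 3). The changes of Cldn19, Cldn2, Ovol2 and Elf3 each passed the edgeR test at an adjusted p of 3.57e-05 or less. In the same list of regulators Ehf rose from 7 reads to 41 over 3 libraries each (log2 fold change 2.52), and Tfap2a rose by 2.36.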
